A study of Hansenula anomala with 15 samples.

Results

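The 11 genes described here encode the enzymes that turn squalene into ergosterol in the yeast Wickerhamomyces anomalus, which is deposited under its older name Hansenula anomala. They are every gene of the deposited table whose KEGG number is one of 10 enzymes of this route. That rule uses no measured value, but the route was picked with earlier results of these data known. They are 11 of 6571 genes in the table, and all 11 had enough counts to be among the 6327 genes tested. Names rest on homology. ERG1, ERG7, ERG11, ERG24, ERG25, ERG6, ERG3, ERG5 and ERG4 match 1 gene each, and the number for ERG2, C-8 sterol isomerase, matches the 2 genes WICANDRAFT_80463 and WICANDRAFT_95956, which carry no symbol, lie next to each other in the RefSeq annotation (assembly Wican1) and are called ERG2-type below. Reads shared between both genes of this pair could not be assessed.

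Ergosterol is the main sterol of yeast membranes, where it sets fluidity and permeability and takes part in tolerance of ethanol. In Saccharomyces cerevisiae, the source of the roles given below, squalene is oxidised and closed into the ring system of lanosterol, 3 methyl groups are removed, and the side chain and rings are then methylated, desaturated and reduced. Several of these steps use molecular oxygen, and the cytochrome P450 enzymes among them carry heme.

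The study followed apricot fermentation by W. anomalus and sampled whole fermentation broth in triplicate (biological replicates, per the labels) after 0, 16, 32, 48 and 64 h. All samples are of the same yeast, with no treatment, mutant or uninoculated broth among them, so that 0 h is the only baseline, and its culture state is not stated in the labels. RNA extracted with TRIzol was made into poly(A) libraries (VAHTS Universal V6 kit), and reads were counted per gene. Because RNA came from broth, fewer living cells and less RNA per cell cannot be told apart, and levels are relative to the other yeast transcripts of a library.

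Library totals ran from 17.6 to 40.1 M counts, and single members had between 80 and 89833 counts in a library. A floor of 3 counts corresponded to 0.0748 to 0.171 CPM, the counts of a gene per 1 M counts of its library. Some libraries stood apart from their groups. The 16 h replicate 2 had a rank correlation of at most 0.754 with the other 16 h libraries, against 0.964 between 16 h replicates 1 and 3, and 64 h replicate 3 was closer to a 32 h library (0.951) than to its own group (at most 0.836). At 0 h, the difference of genes from the mean of the other 0 h libraries went with gene span in opposite directions. The rank correlation was 0.441 in replicate 1, 0.430 in replicate 2 and -0.493 in replicate 3. Replicates 1 and 2, with a rank correlation of 0.988 between them, were each set against a mean that holds replicate 3, so these 3 values are not independent. All 4 members with a span under 1000 bases, introns included, were higher in 0 h replicate 3 than in the mean of the other 0 h libraries, by 1.99-fold for ERG25 to 2.73-fold for ERG24, while for the 7 longer members this ratio lay between 0.763 and 1.47. Calls of members that ended without 1 of these libraries are given below, and most other values are given with all libraries. By rank correlation, 32 h replicate 3 was also closer to 48 h replicate 2 (0.965) than to its own group (at most 0.886). So were 48 h replicate 1 to 32 h replicate 2 (0.954 against 0.934) and 48 h replicate 2 to 32 h replicate 3 (0.965 against 0.954). Below, both libraries that stood apart means 16 h replicate 2 and 64 h replicate 3, and fits without both keep the others.

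The 11 transcripts had their highest means at different times. Means were highest at 0 h for ERG1, ERG25, ERG6 and WICANDRAFT_95956, at 16 h for ERG7, ERG11 and ERG3, at 32 h for ERG24 and ERG4, and at 64 h for ERG5 and WICANDRAFT_80463. ERG6, both ERG2-type genes and ERG4 had their lowest mean at 16 h. ERG25 and ERG3 made up 51.1% and 18.8% of the counts of the 11 genes at 0 h and so weigh most in their sum. The summed level, in CPM scaled by the trimmed mean of M-values (TMM), was, in order of time from 0 h to 64 h, 4596 ± 1147, 3608 ± 607, 919 ± 194, 884 ± 289 and 1705 ± 836 (SD, n = 3 each). Leaving out 1 library of the group gave means of 3951 to 5049 at 0 h and 3261 to 3821 at 16 h. As a share of all counts of a library, with no TMM scaling, the 11 genes took 0.373% to 0.405% at 0 h, 0.168% to 0.212% at 16 h, 0.0793% to 0.161% at 32 h, 0.0958% to 0.208% at 48 h and 0.103% to 0.200% at 64 h. These shares at 16 h overlapped those at 48 h and 64 h. The largest step of the sum lay between 16 h and 32 h with TMM and between 0 h and 16 h as a share of the library. Over the 5 time points 9 of 11 genes changed (edgeR quasi-likelihood F test, Benjamini-Hochberg adjusted p under 0.05), against 68.5% of all genes tested. ERG24 (adjusted p = 0.882) and ERG5 (adjusted p = 0.393) did not pass.

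**Figure D1:**
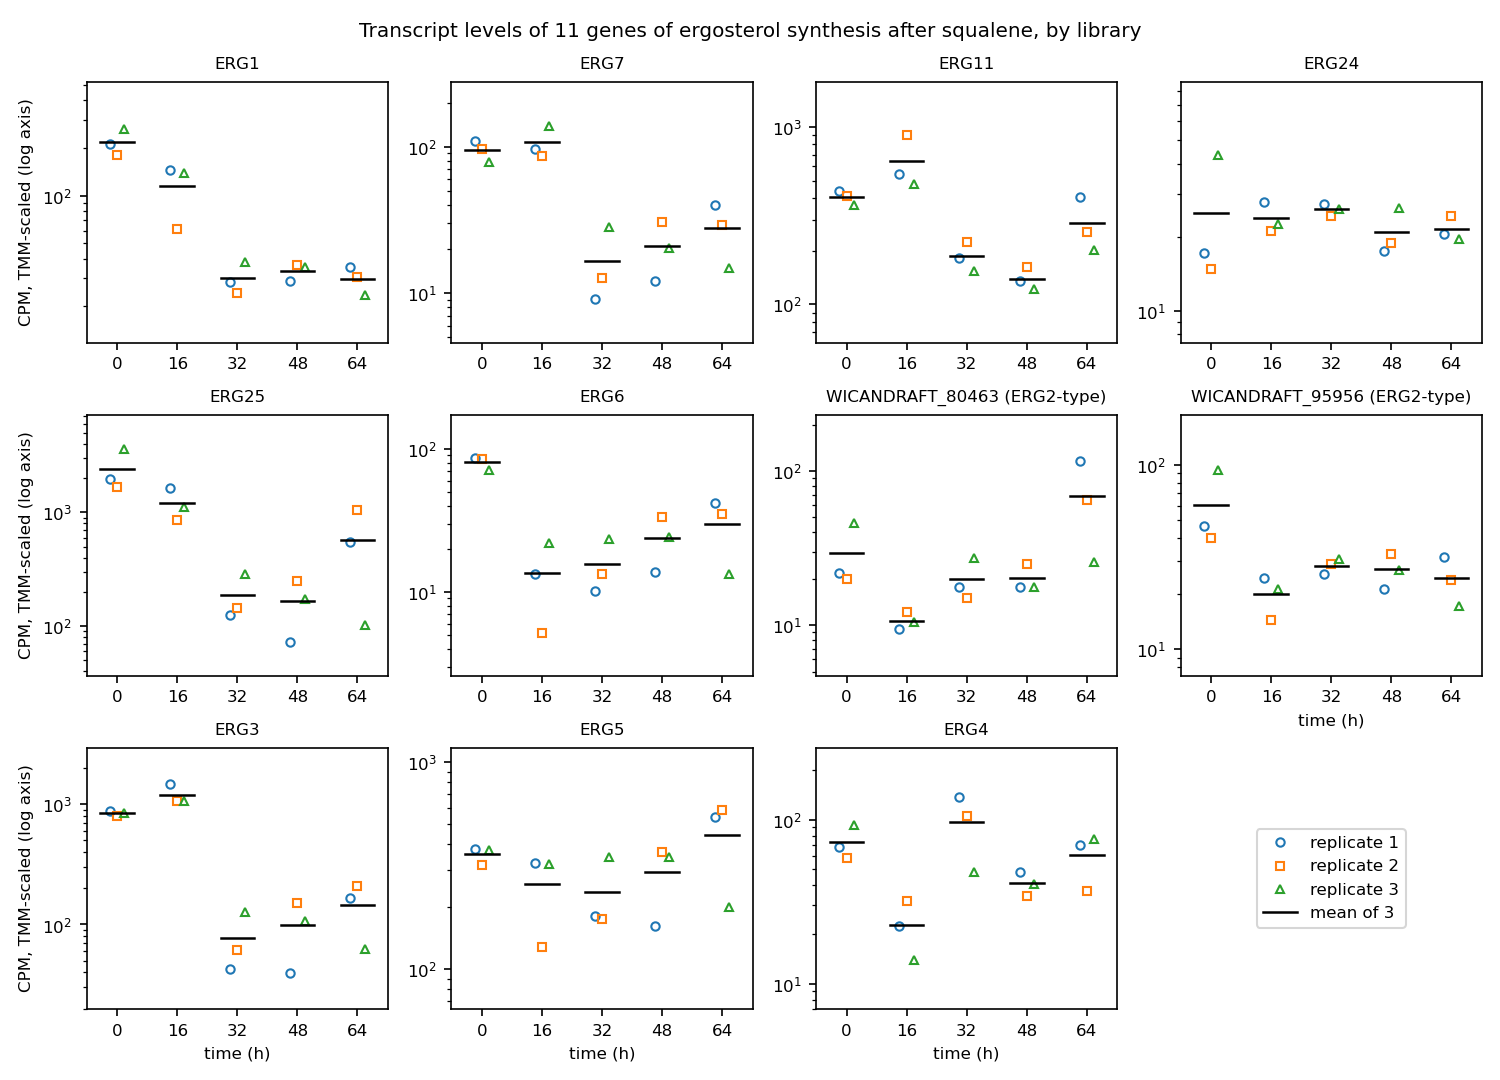
Level of each of the 11 genes (TMM-scaled CPM, log axis) by time in hours, where each symbol is a library and each bar the mean of 3. ERG1, ERG7, ERG11, ERG25 and ERG3 lie lower in every 32 h library than in every 16 h library. ERG4 and both ERG2-type genes lie higher, and the 64 h libraries are spread widely in ERG25 and WICANDRAFT_80463.

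Members fell at both of the first steps between neighbouring times, which share the 16 h libraries. At 16 h against 0 h, 0 members rose and 5 fell (ERG1, ERG6, both ERG2-type genes and ERG4), against 22.6% risen and 17.8% fallen among all genes tested. The median log2 fold change was -0.92 for the members and 0.09 for all genes. At 32 h against 16 h, 1 member rose (ERG4) and 5 fell (ERG1, ERG7, ERG11, ERG25 and ERG3), against 14.1% and 17.7% of all genes, with medians of -0.14 and -0.06. ERG1 passed at both steps. With library size scaling, 5 members rose and 2 fell at 32 h against 16 h, and the members' median was 1.13 against 1.10 for all genes. Counts of all genes called with that scaling at this step are given further below.

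After 32 h no step between neighbouring times passed for a member. At 48 h against 32 h edgeR called 0 members risen and 0 fallen, and 0% of all genes in either direction. At an unadjusted p under 0.05 there were 347 genes. DESeq2 called 0 members and 2 of all genes, and limma-voom 0 of either. At 64 h against 48 h edgeR called 0 members in either direction (0% of all genes risen and 0.0158% fallen; 1559 genes had an unadjusted p under 0.05). DESeq2 called 589 genes risen and 287 fallen, among them 3 risen members, and limma-voom 19 and 17 genes with 0 members. The 3 members, ERG11, ERG25 and WICANDRAFT_80463, also rose in edgeR without 64 h replicate 3, by 1.23, 2.28 and 2.16 on the log2 scale. Of these, ERG11 and WICANDRAFT_80463 rose without 16 h replicate 2 and WICANDRAFT_80463 without 0 h replicate 3.

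Set against 0 h, the later times had 7 fallen members at 32 h, 7 at 48 h and 6 at 64 h. The same comparisons had 0, 0 and 1 risen member. With library size scaling 5 fell at 32 h, 3 at 48 h and 5 at 64 h. The share of all genes called with that scaling is not given for these times, so these counts cannot be read against it. The median log2 fold change of all genes with that scaling was 0.47, 0.96 and 0.24 at these times. These 3 comparisons share the 0 h libraries. Among all genes with TMM, 25.8% rose and 25.9% fell at 32 h, and 24.1% rose and 22.6% fell at 48 h. At 64 h 26.6% rose and 25.8% fell. Median log2 fold changes of the members with TMM were -1.11, -1.53 and -1.31 at 32, 48 and 64 h. For all genes they were -0.03, 0.02 and -0.02. At 64 h against 16 h, 2 members rose (WICANDRAFT_80463 and ERG4) and 4 fell (ERG1, ERG7, ERG11 and ERG3), against 18% and 20.8% of all genes.

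Some calls against 0 h ended when 1 library was left out. At 32 h these were ERG11 (without 0 h replicate 1, 32 h replicate 1 or 32 h replicate 3) and WICANDRAFT_95956 (without 0 h replicate 3, 32 h replicate 1 or 32 h replicate 2). At 48 h they were ERG6 and WICANDRAFT_95956 (without 48 h replicate 1, and for WICANDRAFT_95956 also without 0 h replicate 3).

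Every library of the later time lay below every library of the earlier one for 6 members at 16 h against 0 h, for 5 at 32 h against 16 h, for 0 at 48 h against 32 h and for 0 at 64 h against 48 h. Among all genes this held for 23.3%, 19.8%, 10.7% and 15%. Every later library lay above for 2, 3, 0 and 2 members in the same comparisons, against 25.9%, 19.7%, 9.99% and 14.6% of all genes. Against 0 h, all libraries were lower for 7 members at 32 h, 8 at 48 h and 6 at 64 h, against 32.8%, 31% and 30.7% of all genes. All were higher for 0 members at each of these times, against 32.7%, 33.4% and 28.6%. At 64 h against 16 h 4 members were lower without overlap and 2 higher, against 20.1% and 18.7% of all genes.

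**Figure D2:**
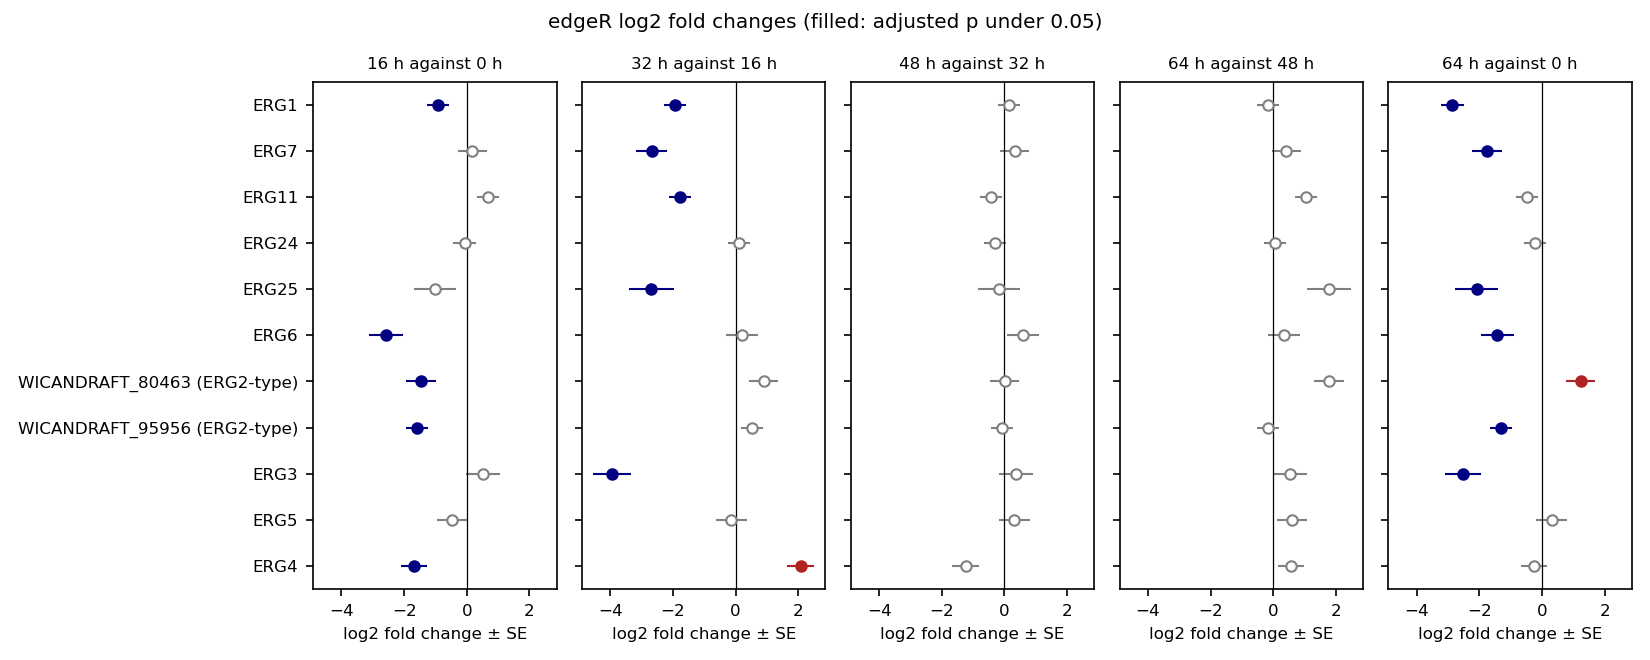
Log2 fold change of each gene with its SE in 5 comparisons, from edgeR on all 15 libraries. Filled symbols passed an adjusted p of 0.05 (blue for fallen, red for risen). ERG1, ERG6, both ERG2-type genes and ERG4 are filled blue at 16 h against 0 h, and ERG1, ERG7, ERG11, ERG25 and ERG3 at 32 h against 16 h, where ERG4 is filled red.

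ERG1 encodes squalene epoxidase, the oxygen-using enzyme that opens the route. Its levels were 212, 182 and 263 CPM at 0 h, 146, 61.8 and 139 CPM at 16 h, 28.6, 24.3 and 38.2 CPM at 32 h, 29.1, 36.6 and 35.3 CPM at 48 h, and 35.7, 30.5 and 23.6 CPM at 64 h. Each 16 h library lay below each 0 h library, and the later libraries lay below all of these and overlapped among themselves. ERG1 was 3.81-fold lower at 32 h than at 16 h (log2 fold change -1.93, SE 0.35, edgeR adjusted p = 0.00109). It was 7.32-fold lower at 64 h than at 0 h (log2 fold change -2.87, SE 0.36, adjusted p = 2.45e-05). The first step, 16 h against 0 h, was smaller (log2 fold change -0.92, SE 0.34, adjusted p = 0.043). This call ended in 12 of 24 alternatives, among them leaving out 16 h replicate 2 (log2 fold change -0.62, adjusted p = 0.122) or any of the 0 h libraries (adjusted p = 0.052 to 0.116). It also ended without 32 h replicate 1 or 2, any 48 h library or 64 h replicate 1, which enter only the shared estimate of the spread and the scaling.

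ERG7 encodes lanosterol synthase, which closes the rings. At 0 h it had 109.6, 96.3 and 78.6 CPM and at 16 h 96.4, 86.1 and 139 CPM, which overlapped. At 32 h it had 9.20, 12.8 and 28.1 CPM, at 48 h 12.1, 30.6 and 20.4 CPM and at 64 h 39.9, 29.2 and 14.8 CPM, all below every earlier library. ERG7 was 6.42-fold lower at 32 h than at 16 h (log2 fold change -2.68, SE 0.49, adjusted p = 0.00106), and the log2 fold change was -3.29 without 32 h replicate 3. Against 0 h the log2 fold change at 32 h was -2.50 with all libraries and -3.11 without that library. Its level at 64 h was 3.39-fold lower than at 0 h (adjusted p = 0.00603).

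ERG11 encodes lanosterol 14-alpha-demethylase, the oxygen-using cytochrome P450 that azole drugs inhibit. It had 436, 409 and 365 CPM at 0 h, 542, 905 and 481 CPM at 16 h, 182, 226 and 154 CPM at 32 h, 136, 162 and 122 CPM at 48 h, and 401, 256 and 202 CPM at 64 h. Every 16 h library was above every 0 h library, yet the step missed the threshold (log2 fold change 0.67, SE 0.35, adjusted p = 0.147). Among all genes, 25.9% had their 16 h libraries all above the 0 h libraries. ERG11 fell 3.43-fold at 32 h against 16 h (log2 fold change -1.78, SE 0.36, adjusted p = 0.00233). At 64 h it stood between, with a level 2.24-fold lower than at 16 h (log2 fold change -1.17, SE 0.36, adjusted p = 0.0187) and not called against 0 h (log2 fold change -0.49, SE 0.35, adjusted p = 0.253). The call against 16 h ended without 16 h replicate 2 (adjusted p = 0.055), without 64 h replicate 2 (adjusted p = 0.055) or replicate 3 (adjusted p = 0.0576), and without both libraries that stood apart (adjusted p = 0.135).

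ERG24 encodes C-14 sterol reductase, the step after ERG11. Its group means stayed between 20.98 ± 4.75 CPM at 48 h and 26.0 ± 1.39 CPM at 32 h (SD, n = 3 each). At 0 h it had 17.2, 14.8 and 43.6 CPM, and 0 h replicate 3 was the highest of all 15 libraries. It passed in 0 of 8 comparisons. Without 0 h replicate 3, ERG24 was called higher at 32 h than at 0 h (log2 fold change 0.70, adjusted p = 0.041).

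ERG25 encodes C-4 methylsterol oxidase, an oxygen-using enzyme that starts removal of both methyl groups at carbon 4. Its levels were 1967, 1668 and 3618 CPM at 0 h and 1636, 856 and 1113 CPM at 16 h. At 32 h it had 124, 145 and 289 CPM, at 48 h 72.9, 248 and 174 CPM, and at 64 h 554, 1044 and 103 CPM. No library of 32 h or 48 h reached the lowest of 16 h, and at 64 h replicate 3 was at the 32 h and 48 h level while the other 64 h libraries were higher. Every 16 h library was below every 0 h library, as for 23.3% of all genes, yet this step missed the threshold (log2 fold change -1.01, SE 0.68, edgeR adjusted p = 0.254). With library size scaling it passed (edgeR adjusted p = 0.0379). ERG25 was 6.47-fold lower at 32 h than at 16 h (log2 fold change -2.69, SE 0.72, adjusted p = 0.0113). That call ended without 32 h replicate 1 (adjusted p = 0.0534) or replicate 2 (adjusted p = 0.0515). Against 0 h it was 14.7-fold lower at 48 h (log2 fold change -3.87, SE 0.75, adjusted p = 0.000781), the deepest fall of any member in these comparisons apart from ERG3 at 32 h against 16 h. With 1 library left out, the log2 fold change at 48 h against 0 h ranged from -4.28 to -3.46. At 64 h ERG25 was 4.27-fold lower than at 0 h (adjusted p = 0.0211), a call that ended without 0 h replicate 3 (adjusted p = 0.0748) or 64 h replicate 1 (adjusted p = 0.0603). Its log2 fold change was -2.88 without 64 h replicate 2, against -2.09 with all libraries.

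ERG6 encodes sterol C-24 methyltransferase, which adds the side-chain methyl group that sets ergosterol apart from cholesterol. It had 86.6, 84.7 and 70.7 CPM at 0 h and 13.3, 5.16 and 21.9 CPM at 16 h. Later levels were 10.2, 13.4 and 23.3 CPM at 32 h, 13.7, 33.3 and 24.2 CPM at 48 h, and 41.5, 35.1 and 13.3 CPM at 64 h. All 12 libraries after 0 h were below all 0 h libraries. The fall at 16 h against 0 h was 5.98-fold (log2 fold change -2.58, SE 0.54, adjusted p = 0.00173), the largest of the 11 genes at this step, and held in all 24 alternatives. At 64 h ERG6 was 2.69-fold lower than at 0 h (adjusted p = 0.0314). The 64 h call ended without 0 h replicate 1 (adjusted p = 0.0712) or 2 (adjusted p = 0.0691) and without 64 h replicate 3 (log2 fold change -1.07, adjusted p = 0.105). The fall at 48 h against 0 h (log2 fold change -1.76, adjusted p = 0.0128) ended without 48 h replicate 1 (adjusted p = 0.0579).

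Both ERG2-type genes fell at 16 h against 0 h, and at 64 h against 0 h WICANDRAFT_80463 rose and WICANDRAFT_95956 fell. WICANDRAFT_80463 had 21.6, 19.9 and 46.1 CPM at 0 h, 9.38, 12.1 and 10.5 CPM at 16 h, 17.61, 14.96 and 27.3 CPM at 32 h, 17.8, 24.9 and 17.58 CPM at 48 h, and 116, 64.5 and 25.7 CPM at 64 h. WICANDRAFT_95956 had 46.8, 40.3 and 93.3 CPM at 0 h, 24.4, 14.3 and 21.1 CPM at 16 h, 25.5, 28.9 and 30.8 CPM at 32 h, 21.3, 32.9 and 27.0 CPM at 48 h, and 31.6, 23.8 and 17.2 CPM at 64 h. The 16 h libraries of each gene were all below its 0 h libraries. WICANDRAFT_95956 was 3.02-fold lower at 16 h than at 0 h (log2 fold change -1.59, SE 0.36, adjusted p = 0.00263) and 2.49-fold lower at 64 h than at 0 h (adjusted p = 0.00634). With 1 library left out, the log2 fold changes of these falls ranged from -1.81 to -1.13 and from -1.55 to -0.85. WICANDRAFT_80463 fell 2.74-fold at 16 h against 0 h (log2 fold change -1.45, SE 0.47, adjusted p = 0.0225). This call ended without 0 h replicate 3 (log2 fold change -0.96, adjusted p = 0.124), 16 h replicate 1 (adjusted p = 0.0696) or 16 h replicate 3 (adjusted p = 0.0557).

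At 64 h WICANDRAFT_80463 was 6.44-fold higher than at 16 h (log2 fold change 2.69, SE 0.49, adjusted p = 0.00079). The rise held in all 24 alternatives, and the log2 fold change was 2.08 without 64 h replicate 1. Against 0 h the groups overlapped and it was 2.35-fold higher (log2 fold change 1.23, SE 0.46, adjusted p = 0.0362), a call that ended in 8 of 24 alternatives. Among these were leaving out 64 h replicate 1 (log2 fold change 0.63, adjusted p = 0.264), 64 h replicate 2 (adjusted p = 0.0545) and 0 h replicates 1 or 2 (adjusted p = 0.126 and 0.133). With 16 h replicate 2 and 64 h replicate 3 both left out, it was 1.63 (adjusted p = 0.00262).

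The ratio of the counts of WICANDRAFT_80463 to those of WICANDRAFT_95956 within a library needs no scaling. In order of time from 0 h to 64 h it averaged 0.484 ± 0.0182, 0.576 ± 0.241, 0.698 ± 0.183, 0.749 ± 0.0917 and 2.62 ± 1.09 (SD, n = 3 each). The 64 h libraries had ratios of 3.67, 2.71 and 1.495, each above the highest of the 12 earlier libraries (0.885). The ratio was chosen after the levels had been seen and is given without a test.

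ERG3 encodes C-5 sterol desaturase, another oxygen-using enzyme. It had 868, 798 and 837 CPM at 0 h, 1461, 1061 and 1052 CPM at 16 h, 42.7, 61.4 and 127 CPM at 32 h, 39.7, 150.5 and 107 CPM at 48 h, and 165, 208 and 62.4 CPM at 64 h. The 6 libraries of 0 h and 16 h and the 9 later ones did not overlap. At 32 h against 16 h ERG3 was 15.5-fold lower (log2 fold change -3.95, SE 0.60, adjusted p = 0.00032), the largest change of any member. It was 5.75-fold lower at 64 h than at 0 h (log2 fold change -2.52, SE 0.56, adjusted p = 0.00191). Both calls held in all 24 alternatives. The step from 0 h, with higher values in every 16 h library, missed the threshold (log2 fold change 0.51, SE 0.53, adjusted p = 0.468).

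ERG5 encodes C-22 sterol desaturase, the second cytochrome P450 of the route, which also uses oxygen and acts on the side chain. It had 378, 319 and 377 CPM at 0 h, 325, 128 and 323 CPM at 16 h, 179.8, 175 and 349 CPM at 32 h, 162, 369 and 348 CPM at 48 h, and 546, 585 and 199 CPM at 64 h. Neighbouring times overlapped, except that 16 h replicate 2 was the lowest library and 64 h replicates 1 and 2 the highest. None of its 8 comparisons passed, and the fold change with the smallest adjusted p was that of 64 h against 16 h (log2 fold change 0.78, SE 0.49, adjusted p = 0.223).

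The ratio of ERG3 to ERG5 counts within a library was, like the grouping of times, chosen after the values were seen. It was higher in every 0 h and 16 h library than in every later one, as was the level of ERG3 alone. It averaged 2.34 ± 0.148 at 0 h and 5.35 ± 2.61 at 16 h, and then 0.317 ± 0.0693 at 32 h, 0.320 ± 0.0825 at 48 h and 0.324 ± 0.0279 at 64 h (SD, n = 3 each). The lowest value of the 6 earlier libraries was 2.22 and the highest of the 9 later ones 0.408. The 16 h replicate 2 had the highest ratio, 8.28, and 64 h replicate 3, at 0.313, lay within its group.

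**Figure D3:**
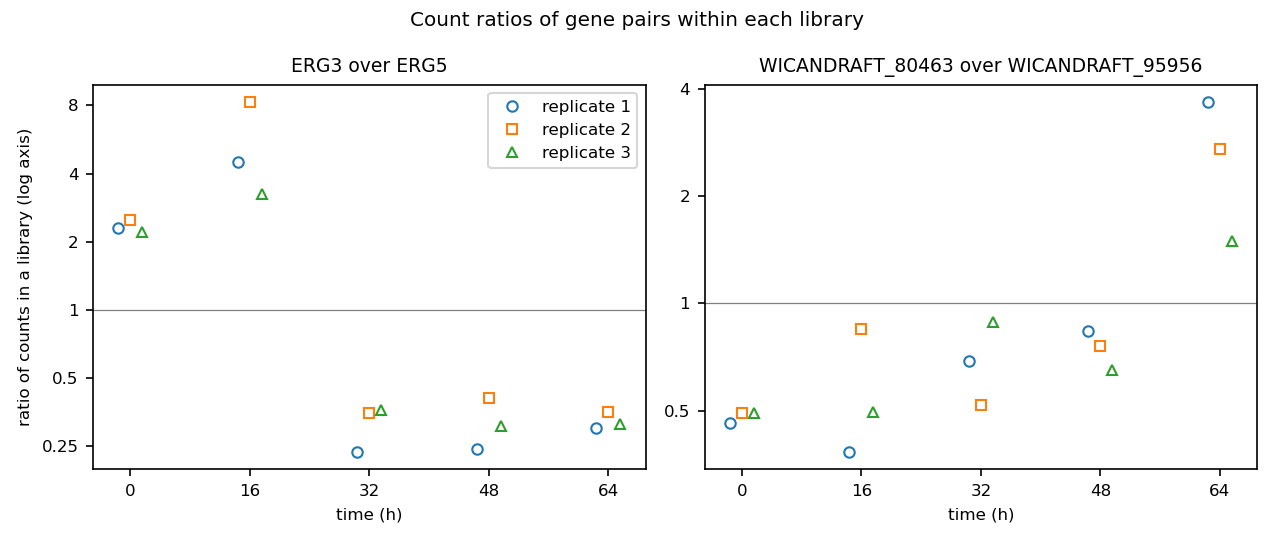
Count ratio of ERG3 to ERG5 (left) and of WICANDRAFT_80463 to WICANDRAFT_95956 (right) in each library by time in hours, on log axes, with a line at 1. The left ratio is above 2.2 in all 0 h and 16 h libraries and below 0.41 in all later ones, and the right ratio exceeds 1 in the 64 h libraries alone.

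ERG4 encodes C-24(28) sterol reductase, the last step. It had 68.1, 58.4 and 92.9 CPM at 0 h, 22.4, 32.1 and 13.99 CPM at 16 h, 137, 106 and 47.9 CPM at 32 h, 48.0, 34.1 and 40.7 CPM at 48 h, and 69.8, 36.6 and 75.9 CPM at 64 h. The 16 h libraries were below those of every other time. ERG4 fell 3.20-fold at 16 h against 0 h (log2 fold change -1.68, SE 0.42, adjusted p = 0.00576). It was then 4.24-fold higher at 32 h than at 16 h (log2 fold change 2.08, SE 0.43, adjusted p = 0.00244). Both held in all 24 alternatives. At 64 h it was 2.66-fold higher than at 16 h (log2 fold change 1.41, SE 0.42, adjusted p = 0.0162), which ended without 16 h replicate 3 (adjusted p = 0.0723) or 64 h replicate 1 (adjusted p = 0.0534). At 32 h and later it was not called against 0 h.

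The make-up of the pathway's counts shifted with time. In order of time from 0 h to 64 h, ERG25 held 51.1 ± 8.99%, 32.8 ± 5.59%, 19.5 ± 5.10%, 17.7 ± 4.53% and 28.6 ± 15.6% of the counts of the 11 genes (SD, n = 3 each). ERG3 held 18.8 ± 4.01%, 32.9 ± 1.26%, 7.98 ± 2.89%, 10.5 ± 3.21% and 8.43 ± 0.399% at the same times. ERG5 took a larger share at the later times, with 8.01 ± 1.40%, 7.08 ± 2.85%, 24.9 ± 5.07%, 32.6 ± 4.26% and 26.1 ± 0.9998%. Shares within the pathway sum to the whole, so the share of a gene also depends on the levels of the others.

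**Figure D4:**
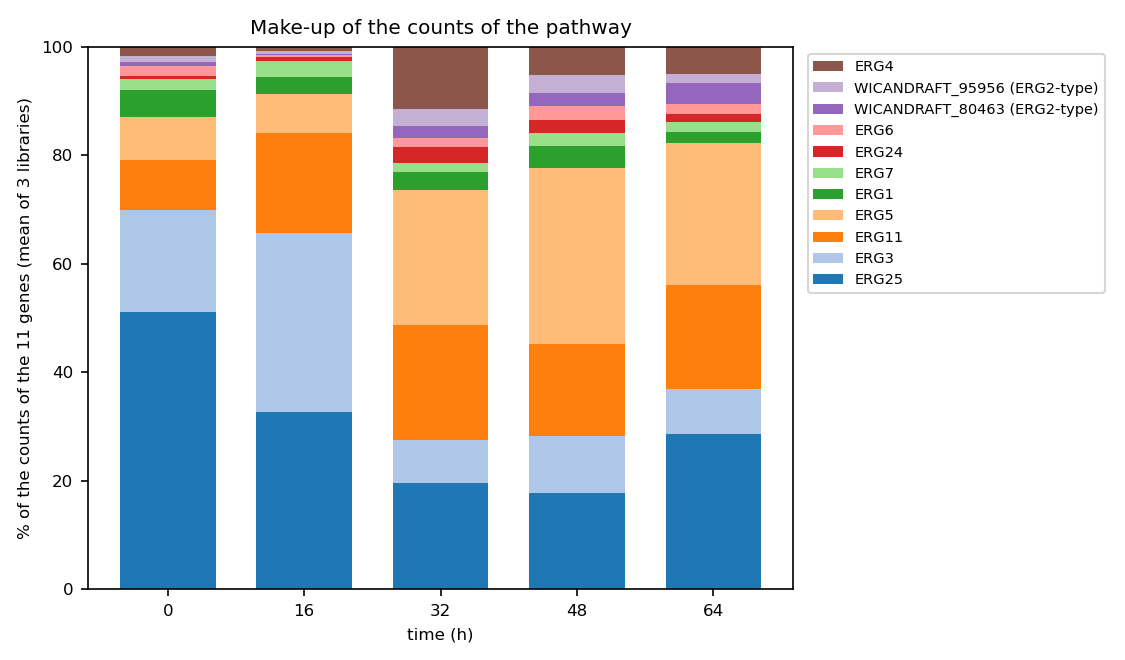
Share of the counts of the 11 genes taken by each gene, as the mean of 3 libraries at each time in hours. ERG25 and ERG3 fill most of the bar at 0 h and 16 h, and ERG5 takes 24.9% to 32.6% from 32 h on.

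To compare genes, CPM were divided by gene span in kb. ERG25 had the highest mean at each time, at 2617 ± 1137 CPM per kb at 0 h and 201 ± 97.4 CPM per kb at 32 h (SD, n = 3 each), but its range was clear of the next gene's at 0 h alone. At 48 h ERG5 was above ERG25 in replicate 1 (89.6 against 78.9 CPM per kb) and replicate 3 (192 against 188 CPM per kb), and in 16 h replicate 2 ERG3 was above it (939 against 927 CPM per kb). At 0 h ERG3 (738 ± 30.6 CPM per kb) came next and was clear of ERG25 and of ERG11 (215 ± 18.9 CPM per kb), while ERG11 and ERG5 (198 ± 18.8 CPM per kb) overlapped. At 16 h ERG3 (1054 ± 206 CPM per kb) overlapped ERG25 (1301 ± 430 CPM per kb). From 32 h on ERG5 stood after ERG25, and their ranges overlapped at 32, 48 and 64 h. The lowest were ERG24 at 0 h (26.2 ± 16.6 CPM per kb), ERG6 at 16 h (12.02 ± 7.49 CPM per kb) and ERG7 at 32, 48 and 64 h (7.67 ± 4.62, 9.65 ± 4.25 and 12.8 ± 5.80 CPM per kb), each overlapping the gene above it.

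Across the 15 libraries the profiles most alike among the members were those of ERG7 and ERG3 (Pearson r = 0.98 of log2 CPM), ERG25 and ERG3 (0.92) and ERG7 and ERG25 (0.90), and the least alike were ERG7 and ERG4 (-0.53). Outside the pathway, the 5 annotated genes closest to the mean profile of the 11 genes were WICANDRAFT_83880 (60S ribosomal protein L13; r = 0.95), VMA1 (a subunit of the vacuolar proton pump; r = 0.95), RPS13 (40S ribosomal protein S13; r = 0.94), WICANDRAFT_56280 (annotated as a monocarboxylate transporter; r = 0.94) and WICANDRAFT_76394 (histone 2A; r = 0.94). These 5 genes were picked for the highest r. The r of each member to the mean of the other members ran from -0.15 for ERG4 to 0.89 for ERG25. Those values cannot be set against the r of the 5 genes, which were picked for it and rest on the mean of all 11 members. All these values describe 15 libraries that share 5 time points, and they carry no test.

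The other genes of sterol synthesis and its supply were read from lists of annotations. Of the mevalonate route, which makes squalene, 10 genes were found and 9 tested, and 8 changed over the 5 time points, where 68.5% of all genes tested did. At 16 h against 0 h the median log2 fold change of these genes was -1.38, against 0.09 for all genes, and 0 rose and 4 fell (22.6% and 17.8% of all genes), namely ERG20 (log2 fold change -1.98), ERG10 (-2.02), ERG9 (-1.94) and HMG1 (-2.02), which encodes the rate-limiting HMG-CoA reductase and had 22.6 ± 6.69 CPM at 16 h and 91.3 ± 22.2 CPM at 0 h (SD, n = 3 each). The call of ERG10 ended without 0 h replicate 3, 16 h replicate 1 or 16 h replicate 2. At 32 h against 16 h, with a median of -0.39 against -0.06 for all genes, of which 14.1% rose and 17.7% fell, 1 rose (ERG9, squalene synthase, log2 fold change 0.92) and 2 fell, ERG20 (-2.12) and MVD1 (-1.88), with 4 fallen when 16 h replicate 2 and 64 h replicate 3 were both left out. The call of ERG9 ended without 32 h replicate 2, and that of MVD1 without 16 h replicate 1 or 3 or 32 h replicate 1 or 2. The log2 fold change of MVD1 was -1.28 without 16 h replicate 3 and -2.47 without 32 h replicate 3. WICANDRAFT_63629, annotated in the same list, was at 0 counts in all 15 libraries.

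Of 3 partners of ERG25 in demethylation, 3 changed over the 5 time points (68.5% of all genes). ERG28, the scaffold of that complex, had 16.3 ± 7.86 CPM at 32 h and 207 ± 66.6 CPM at 16 h (SD, n = 3 each; log2 fold change -3.66, SE 0.65, adjusted p = 0.000944). At 16 h against 0 h, ERG26 was called higher at levels under 5 CPM in the mean (log2 fold change 3.14) and ERG27 lower (log2 fold change -1.08). The call of ERG26 ended without 0 h replicate 1 or 2 or 16 h replicate 2, and that of ERG27 ended in 13 of 23 alternatives.

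Of 8 heme synthesis genes 7 changed over the 5 time points (68.5% of all genes). At 32 h against 16 h 1 rose (HEM15, ferrochelatase, log2 fold change 1.54) and 3 fell, where 14.1% and 17.7% of all genes did. HEM13, the oxygen-using coproporphyrinogen oxidase, had 168 ± 26.7 CPM at 32 h and 4822 ± 3208 CPM at 16 h (SD, n = 3 each; log2 fold change -4.84, SE 0.67, adjusted p = 0.000182). HEM14 fell by 3.92 and HEM1 by 1.22 on the log2 scale, and the call of HEM1 ended without 16 h replicate 3. Without 16 h replicate 2, the log2 fold change was -4.18 for HEM13 and -3.17 for HEM14. At 16 h against 0 h HEM4 rose (log2 fold change 1.51) and HEM3 fell (log2 fold change -2.04), and the call of HEM3 ended without 0 h replicate 2 or 16 h replicate 1 (log2 fold change -2.99 without 16 h replicate 3). Leaving out 0 h replicate 3 gave 3 risen heme genes, and leaving out 16 h replicate 3 gave 2.

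OLE1, the oxygen-using fatty acid desaturase, fell at 32 h against 16 h, with 890 ± 286 CPM at 32 h and 5186 ± 531 CPM at 16 h (SD, n = 3 each; log2 fold change -2.54, SE 0.61, adjusted p = 0.00653). Of 2 delta-9 desaturase genes, OLE1 among them, 2 fell at this step, where 17.7% of all genes did, with a median log2 fold change of -1.88. Over the 5 time points 1 of 2 delta-9 desaturase genes, 4 of 6 genes of electron donors such as cytochrome b5 and its reductases, 3 of 5 oxysterol-binding protein genes and 0 of 1 sterol ester synthesis gene changed, where 68.5% of all genes did. The desaturase count was 2 without 16 h replicate 2, 64 h replicate 2 or 64 h replicate 3, and the oxysterol-binding count was 5 without 32 h replicate 3. The list of sterol regulators matched 0 genes.

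The scaling of the libraries moves these changes as a whole. With library size scaling the median log2 fold change of all genes was -0.60 at 16 h against 0 h and 1.10 at 32 h against 16 h, against 0.09 and -0.06 with TMM. Of all genes, 620 rose and 1753 fell at 16 h against 0 h (1432 and 1126 with TMM), and 2809 rose and 285 fell at 32 h against 16 h (889 and 1118 with TMM). Relative to that median, log2 fold changes at 32 h against 16 h were -3.76 for ERG3, -2.56 for ERG7 and 2.08 for ERG4, and that of ERG6 at 16 h against 0 h was -2.68. Not relative to it, 0 members rose and 6 fell at 16 h against 0 h, and 5 rose (ERG4, ERG24, ERG6 and both ERG2-type genes) and 2 fell (ERG3 and ERG7) at 32 h against 16 h. At 64 h against 0 h the median was 0.24, and 1 member rose and 5 fell.

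**Figure D5:**
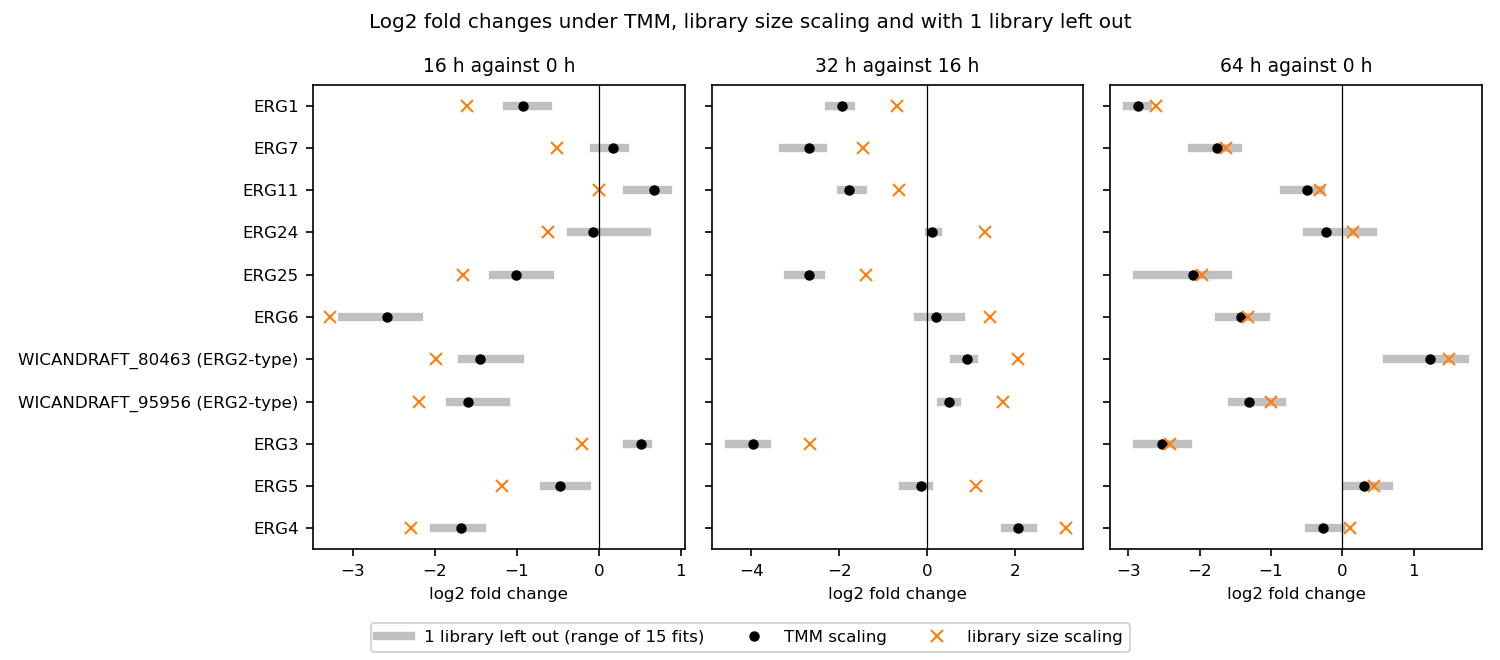
Log2 fold change of each gene in 3 comparisons with TMM scaling (dots), with library size scaling (crosses) and over 15 fits that each leave out 1 library (grey bars). Crosses shift left of the dots at 16 h against 0 h and right at 32 h against 16 h by a similar amount for each gene, and lie near the dots at 64 h against 0 h.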

How the data were processed

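The deposited table holds raw read counts per gene, which the authors did not normalise. The submitters' processing notes list HTSeq, HISAT2 and fastp with no version, and the genome build and the strand setting of counting are not given in the sources used here, so reads of overlapping or antisense genes cannot be told apart. All 6571 locus tags matched the RefSeq annotation Wican1, which gave symbols and gene spans (introns included). Samples were grouped by the time in their titles, and replicates differed by more than sampling noise.

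In R 4.3.3, edgeR 4.0.16 fitted a quasi-likelihood model with a mean per time point to all 15 libraries (filterByExpr, TMM, 10 residual degrees of freedom). Benjamini-Hochberg adjustment ran over all 6327 genes tested within each of 8 comparisons and the F test, at a threshold of 0.05. Rose and fell are used of genes past it. SE is the log2 fold change over the root of F and is approximate. Log2 CPM for correlations had a pseudocount of 1, and likeness was read over genes averaging 20 CPM or more. Alternatives were median-of-ratios and library size scaling, no filter, a mean of at least 10 CPM, DESeq2 1.42.0, limma-voom 3.58.1, only the 6 libraries compared, the replicate number as a block, each library left out, and both libraries that stood apart left out. The pipeline was tested on simulated counts in which genes changed at 16 h alone. These held no library that stood apart and no effect of gene span, so the test does not bear on either. P-values set the differences between time means against the spread between these samples, which the main fit estimated over all 15 libraries. PCR duplicates were not identified, so floors cover counting error only. The members, the related lists and the tests were chosen with earlier results of these data known, and the alternatives for the related lists were added after seeing the data. Named genes are all members, list genes with the 2 largest called changes or in counts of 5 or fewer, and the 5 genes most like the members' mean profile.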

Additional observations from a re-analysis of the deposited data

How the results depend on the processing

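Of 38 called changes of members in 8 comparisons, 21 held in all 24 alternatives, 36 held without both libraries that stood apart (the exceptions are ERG1 at 16 h against 0 h and ERG11 at 64 h against 16 h), and 0 turned direction. With library size scaling 26 held. That scaling, which applies no composition factor, gave 2 fallen members at 32 h against 16 h, 3 at 48 h against 0 h and 2 at 64 h against 16 h, 5 risen at 32 h against 16 h and 5 at 64 h against 16 h, and summed levels of 1941 CPM at 16 h, 1165 CPM at 32 h and 1511 CPM at 48 h. Counts of all genes called with it are given above for 16 h against 0 h and 32 h against 16 h alone. Library size scaling moved the median of all genes at 48 h against 32 h to 0.45 and at 64 h against 48 h to -0.73. With it the F test passed for ERG24 (adjusted p = 0.0108) and ERG5 (0.0279) and not for ERG11 (0.423), and without 0 h replicate 3 it did not pass for WICANDRAFT_95956 (0.0549).

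Risen members at 64 h against 0 h numbered 0 with limma-voom, a mean of at least 10 CPM, only the 6 libraries compared and the replicate block, and at 64 h against 16 h 1 with only the 6 libraries. At 64 h against 48 h 3 rose with DESeq2 and 3 without both libraries that stood apart. Leaving out 1 library gave 3 to 5 fallen members at 16 h against 0 h, 4 to 5 at 32 h against 16 h, 5 to 7 at 32 h and at 48 h against 0 h, 5 to 6 at 64 h against 0 h and 3 to 4 at 64 h against 16 h. It gave 0 to 1 risen members at 32 h and at 64 h against 0 h, 1 to 3 at 64 h against 16 h and 0 to 3 at 64 h against 48 h. The low value at 16 h against 0 h (3) and the risen member at 32 h against 0 h came without 0 h replicate 3, and the single risen member at 64 h against 16 h without 64 h replicate 1.

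Same-numbered replicates of different times deviated together in 7 of 30 pairs (r of -0.66 to 0.56, counted above 0.1), so the numbers were not taken to pair samples. The replicate block ended the calls of ERG6 (log2 fold change -1.40) and WICANDRAFT_80463 (1.25) at 64 h against 0 h and no other member's call.

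Uncalled log2 fold changes changed sign as follows, and the cause was not tested. With library size scaling, ERG11 and ERG25 at 48 h against 32 h became 0.038 and 0.24, WICANDRAFT_95956 0.37 and ERG24 0.13. ERG24 became 0.82 at 48 h against 0 h, 0.16 at 64 h against 0 h, 0.78 at 64 h against 16 h and -0.67 at 64 h against 48 h. At 64 h against 48 h ERG3 became -0.30, ERG4 -0.043, ERG5 -0.22, ERG6 -0.48 and ERG7 -0.39. At 16 h against 0 h ERG3 became -0.21 and ERG7 -0.51. ERG4 became 0.15 at 48 h and 0.11 at 64 h against 0 h, ERG5 1.13 at 32 h against 16 h and 0.67 at 48 h against 0 h, and WICANDRAFT_80463 0.092 at 32 h and 0.54 at 48 h against 0 h. ERG24 at 16 h against 0 h became 0.084 with limma-voom, 0.020 with the replicate block and 0.0078 without both libraries that stood apart, which also turned ERG6 at 32 h against 16 h to -0.17 and WICANDRAFT_95956 at 64 h against 48 h to 0.032. With a mean of at least 10 CPM ERG24 became -0.083 at 32 h against 0 h and -0.040 at 64 h against 48 h, and WICANDRAFT_95956 0.0056 at 48 h against 32 h. WICANDRAFT_80463 at 48 h against 32 h became -0.015 with DESeq2 and with median-of-ratios factors.

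Leaving out 1 library spanned zero for ERG24 at 16 h (-0.34 to 0.58), 32 h (-0.22 to 0.70), 48 h (-0.53 to 0.39) and 64 h (-0.49 to 0.43) against 0 h and at 64 h against 48 h (-0.061 to 0.27). At 48 h against 32 h it did so for ERG25 (-0.63 to 0.30), ERG3 (-0.11 to 0.93), ERG7 (-0.075 to 0.94), WICANDRAFT_80463 (-0.20 to 0.30) and WICANDRAFT_95956 (-0.27 to 0.025). It also did for ERG5 (-0.54 to 0.059) and ERG6 (-0.19 to 0.77) at 32 h against 16 h, ERG7 at 16 h against 0 h (-0.056 to 0.31) and WICANDRAFT_95956 at 64 h against 48 h (-0.40 to 0.042).

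For the related lists, library size scaling gave 7 fallen mevalonate genes at 16 h against 0 h, and 0 fallen and 2 risen at 32 h against 16 h. Fallen mevalonate genes at that step numbered 1 with limma-voom or only the 6 libraries (0 risen) and 4 without both libraries that stood apart. Heme genes risen numbered 0 at 16 h against 0 h and 2 at 32 h against 16 h with library size scaling, and 2 at 16 h against 0 h with DESeq2, where fallen ones numbered 0 with only the 6 libraries. ERG26 was 0 of the risen with library size scaling, limma-voom, a mean of at least 10 CPM, only the 6 libraries, the replicate block and without both libraries, and ERG27 0 of the fallen with a mean of at least 10 CPM, the block and without both. Partners of ERG25 changed over time numbered 1 with a mean of at least 10 CPM, desaturases 2 with DESeq2 and without both libraries, and sterol ester genes 1 with library size scaling. Leaving out 1 library gave, for the mevalonate list, 6 to 9 changed, 3 to 5 fallen at 16 h and 1 to 3 fallen and 0 to 1 risen at 32 h against the time before. For the other lists it gave 2 to 3 changed, 0 to 1 fallen and 0 to 1 risen at 16 h for the partners, 6 to 8 changed, 0 to 1 fallen and 1 to 3 risen at 16 h, and 2 to 4 fallen at 32 h for heme, 1 to 2 changed desaturases, 4 to 6 electron donors and 3 to 5 oxysterol-binding genes.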
